A study of Arabidopsis thaliana with 6 samples.

Results

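The transcripts of 9 genes known to be induced when plant cells run short of oxygen were followed in whole roots of spy-3 and wild-type Arabidopsis seedlings. They are AT1G33055, AT3G10020, AT3G10040 (HRA1), AT3G27220, AT4G10270, AT1G19530, AT3G23170, AT3G03270 and PDC2. These are 9 of 13333 genes to which the array annotation assigns a probe set of their own. Several were chosen by their lower signals in spy-3 on these same arrays, so the difference between the genotypes is given for them as a description. No p-value is printed for them, and how many of them the fit across all probe sets called is given only as a count that supports nothing. Each of the 9 genes has 1 such probe set, so the rule of taking the brightest probe set of a gene changed nothing.

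RNA came from whole roots of seedlings of 7 d, with 3 arrays for the spy-3 mutant and 3 for the wild type, both in the Col ecotype. SPINDLY (SPY), the gene mutated in spy-3, encodes a glycosyltransferase that modifies nuclear and cytosolic proteins and restrains gibberellin signaling. A single mutant allele was compared. The seedlings of both genotypes grew on a nylon mesh over MS agar in upright plates at 22 °C with 16 h of light and 8 h of dark, and the labels name no low-oxygen treatment for any sample. Every value below is therefore a level in plate-grown roots with no stated change of oxygen.

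Plant cells sense oxygen through the group VII ERF transcription factors. In air, cysteine oxidases oxidize the amino-terminal cysteine of these factors, and the N-degron pathway then degrades them. When oxygen falls the factors persist and switch on a set of genes shared by most cell types, among them enzymes of sucrose breakdown and ethanolic fermentation and many small proteins whose function is little known. PDC2 encodes a pyruvate decarboxylase, the enzyme type that opens the fermentation pathway by making acetaldehyde from pyruvate. HRA1, named HYPOXIA RESPONSE ATTENUATOR1, is a transcription factor that is induced by low oxygen and then restrains the ERF factor RAP2.12. The other 7 carry no symbol in the annotation used here and are given here by locus as genes that low oxygen induces.

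On the ATH1 array a transcript is read by several short probes, together called a probe set, and the MAS5 software turns their brightness into a single signal. Signals are given here on the linear scale, and the median signal was 85.4 to 87.2 on each of the 6 arrays. Pearson coefficients between arrays, on the log2 scale over all probe sets, were 0.958 to 0.966 within a genotype and 0.952 to 0.963 between genotypes. SPY itself had signals of 285.3 ± 36.7 in spy-3 and 267.4 ± 21.8 in wild type (SD, n = 3 each). A mutant allele need not lower its own mRNA, so this level does not test the labels. With 3 arrays against 3, an exact permutation test cannot give a two-sided p below 0.1, so calls rest on limma, which shares the variance across probe sets. The study's methods call the arrays of a genotype biological replicates but do not say what was grown or harvested separately, and p-values measure only the spread between these arrays.

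AT1G33055 showed the largest difference of the 9 genes. Its signals were 54.7, 54.2 and 58.8 in spy-3, against 492.9, 534.5 and 458.3 in wild type. The genotypes lay far apart, since the lowest wild-type array was 7.79-fold above the highest spy-3 array. The log2 fold change was -3.15 (standard error 0.08), or 8.85-fold lower in spy-3. The size of this fold depends on how low signals are treated. In log2 units it was -2.83 with 16 added to each signal before the log2 conversion and -2.22 with 64 added. Among the 11373 brighter probe sets, those whose log2 signal averaged over 6.42 (the median), its fold change ranked number 1 from the lowest, and among all 22746 probe sets it ranked number 2. Its signal lay below the array median in every spy-3 array and above it in every wild-type array.

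AT3G10020 followed the same direction with little scatter among the mutant arrays. Its signals were 147.8, 155.2 and 147.0 in spy-3 and 450.8, 434.3 and 380.5 in wild type. Every spy-3 array was below every wild-type array, and the coefficient of variation was 3.01% in spy-3 and 8.71% in wild type. On the log2 scale the fold change was -1.49 (standard error 0.07), or 2.81-fold lower, which ranked number 13 from the lowest among the 11373 brighter probe sets. With 64 added to each signal it was -1.18 in log2 units.

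HRA1, the attenuator of the response, had signals of 18.6, 15.2 and 17.0 in spy-3, against 63.4, 65.5 and 71.6 in wild type. Again no array of one genotype reached the range of the other. In log2 units the fold change was -1.98 (standard error 0.18), or 3.96-fold lower in spy-3. All 6 values lie below the median signal of their arrays, so the size of this fold depends on how low signals are treated. With 64 added to each signal before the log2 conversion the fold change of HRA1 was -0.69.

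AT3G10020 and AT3G10040 (HRA1) lie near each other on chromosome 3, with 1 gene, AT3G10030, between them in the RefSeq annotation. AT3G10030 had signals of 138.8, 141.6 and 139.1 in spy-3 and 164.1, 150.3 and 168.5 in wild type. On the log2 scale it differed by -0.20 (limma, adjusted p = 0.16), less than the gene on either side, although its arrays did not overlap between genotypes.

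AT3G27220 had signals of 48.7, 44.1 and 34.1 in spy-3 and 83.3, 77.0 and 86.9 in wild type. The groups did not overlap, and the spread was wider in spy-3, with a coefficient of variation of 17.6% against 6.08% in wild type. The log2 fold change was -0.98 (standard error 0.17), or 1.97-fold lower, and -0.46 with 64 added to each signal.

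AT4G10270 was dim in both genotypes. Its signals were 6.6, 8.3 and 12.0 in spy-3 and 32.8, 25.4 and 27.0 in wild type. Its log2 fold change was -1.70 (standard error 0.33), or 3.25-fold lower in spy-3 without overlap, but the coefficient of variation reached 30.8% in spy-3 and 13.7% in wild type. At such low signals the fold depends on how they are treated, and it was -0.83 in log2 units with 16 added to each signal and -0.34 with 64 added. Its neighbor AT4G10265, listed as its paralog, has no probe set of its own among the named ones and is not analysed here.

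**Figure D1:**
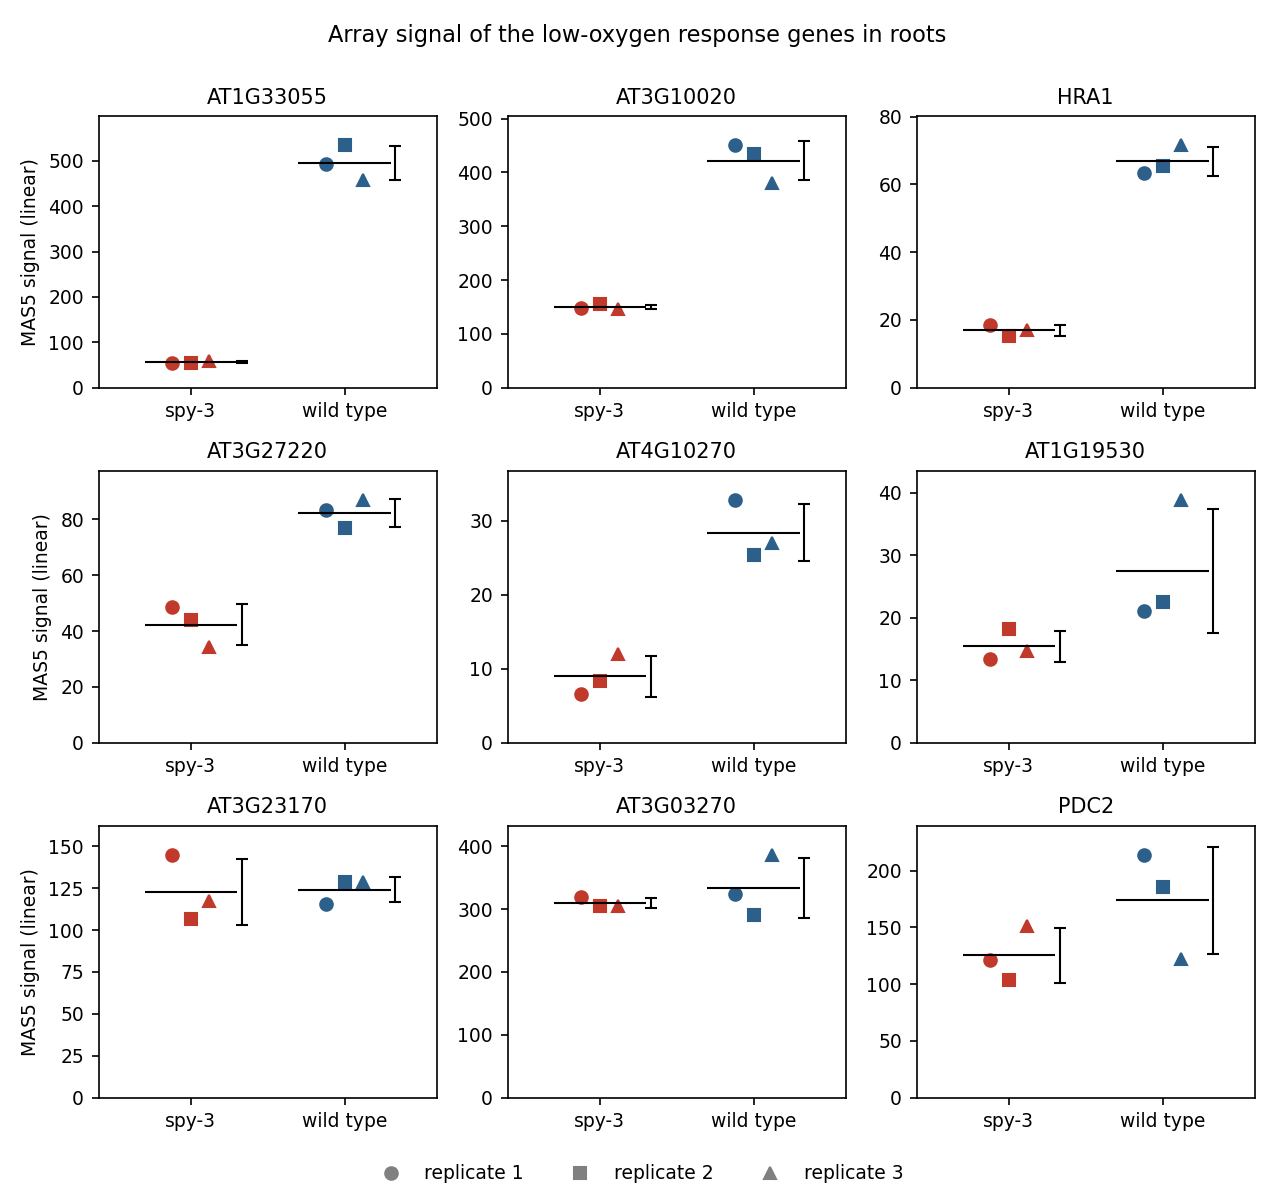
Array signal (linear MAS5 units, each axis from 0) of the 9 low-oxygen response genes in spy-3 (left, red) and wild type (right, blue). Each symbol is 1 array, lines are means and bars are SD (n = 3). The spy-3 arrays of AT1G33055 sit between 54.2 and 58.8 and the wild-type arrays between 458.3 and 534.5, whereas the arrays of AT3G23170, AT3G03270 and PDC2 overlap.

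The remaining 4 genes were not called in the fit across all probe sets. AT1G19530 had signals of 13.4, 18.2 and 14.6 in spy-3 and 21.0, 22.5 and 38.8 in wild type. The arrays did not overlap, but wild type replicate 3 stood well above the other two, and the coefficient of variation in wild type was 36.0% against 16.2% in spy-3. The log2 fold change of -0.79 (standard error 0.33) became -0.51 without that array and -0.20 with 64 added to each signal.

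PDC2 had signals of 121.0, 103.8 and 151.6 in spy-3 and 213.7, 185.7 and 122.2 in wild type. Wild type replicate 3 lay inside the range of the mutant arrays, while both other wild-type arrays were above it. The log2 fold change was -0.45 (standard error 0.24) with all arrays and -0.68 without wild type replicate 3.

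AT3G03270 had signals of 318.8, 305.1 and 305.3 in spy-3 and 323.1, 291.2 and 385.7 in wild type. The genotypes overlapped, and the log2 fold change of -0.10 (standard error 0.10) was 0.01 without wild type replicate 3, so its direction rested on that array. AT3G23170 had signals of 144.7, 106.6 and 117.1 in spy-3 and 115.5, 128.4 and 128.5 in wild type. The log2 fold change was -0.03 (standard error 0.13), with the spy-3 arrays reaching both above and below those of wild type. Its sign rested on single arrays too, since it was 0.07 without spy-3 replicate 2. For both genes the difference between the genotypes was no larger than the spread between replicates.

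Counted together, 5 of the 9 genes were called lower in spy-3 by limma at an adjusted p of 0.05, where 3.13% of all 22746 probe sets were called lower. None of the 9 was called higher, where 2.64% of all probe sets were. Neither limma nor a one-way analysis of variance could give any of them as higher at any threshold, since all 9 log2 fold changes were below 0. With the study's thresholds, 1.5-fold and 0.01 for the adjusted p, set on the limma fit, 3 of the 9 were lower (AT1G33055, AT3G10020 and HRA1). This compares with 0.8% of all probe sets. The study set its thresholds on an analysis of variance, so these are not its own calls. For 6 of the 9 all spy-3 arrays were below all wild-type arrays, as for 11.5% of all probe sets, and all 9 log2 fold changes were below 0, as for 46.6% of all probe sets. The choice of the genes used this same contrast, so these shares describe the list and test nothing about it. The median log2 fold change was -0.98 over the 9 genes and 0.02 over all probe sets.

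The count of 5 fell when any 1 array was left out and depended on the test. It was 3 by the analysis of variance, where 1.63% of all probe sets were lower, and 3 with the replicate number as a block, where 1.72% were. AT1G33055, AT3G10020 and HRA1 passed without any 1 of the 6 arrays. AT4G10270 did not pass once any array was left out, and AT3G27220 passed only without spy-3 replicate 1 or spy-3 replicate 3. With 1 array left out, the log2 fold change stayed between -1.93 and -1.50 for AT4G10270 and between -1.09 and -0.83 for AT3G27220. The count was 3 without spy-3 replicate 2 or wild type replicate 1, 2 or 3, and 4 without spy-3 replicate 1 or 3.

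**Figure D2:**
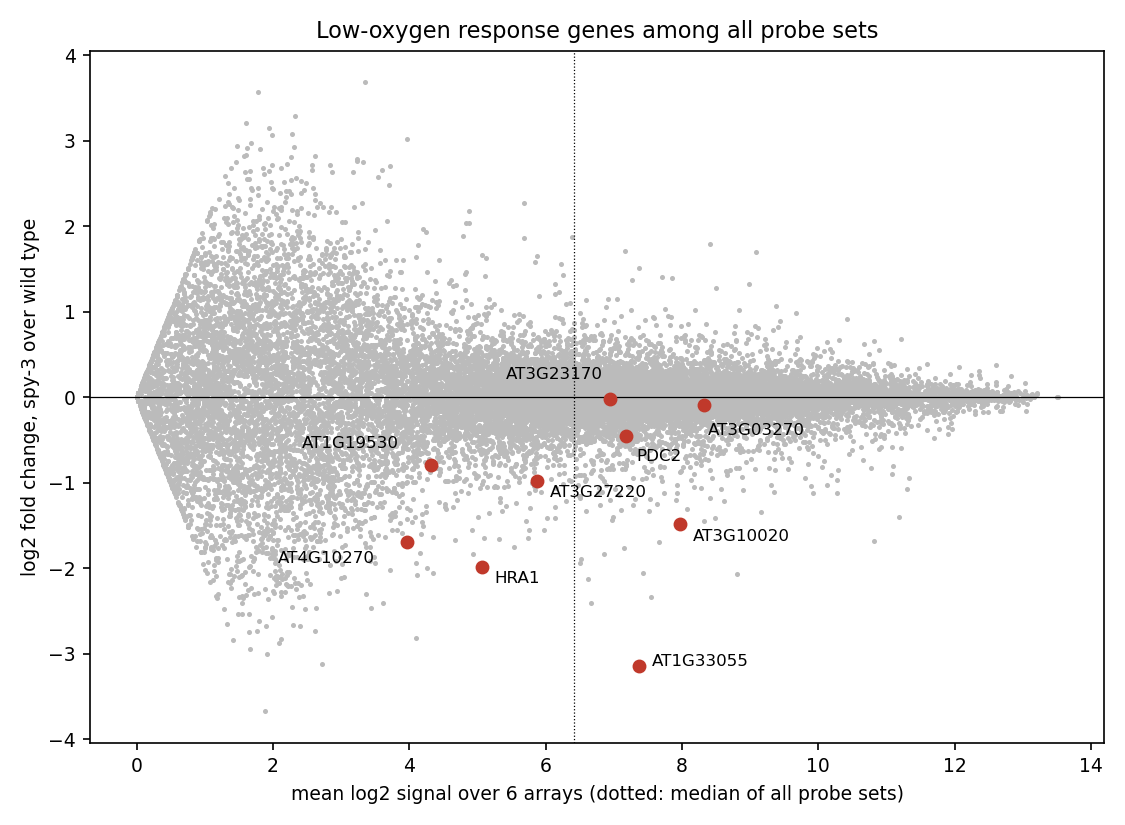
Log2 fold change of spy-3 over wild type (vertical axis) against the mean log2 signal over the 6 arrays (horizontal axis) for all 22746 probe sets (grey) and the 9 low-oxygen response genes (red). The dotted line marks the median signal of 6.42. AT1G33055 at -3.15 stands below all other probe sets right of that line and AT3G10020 at -1.49 below most of them, while AT4G10270 and AT1G19530 lie where dim probe sets scatter widely.

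Some markers of green tissue and of root hairs were also lower on these arrays. Of 16 listed genes of green tissue 3 had a probe set of their own, none at 0, and 1, the Rubisco activase gene RCA, was lower in spy-3 (-0.57 on the log2 scale, limma, adjusted p = 0.0027). The others, SBPASE and PRK, were dim, overlapped between the genotypes and were not called (limma, adjusted p = 0.393 and 0.948). The summed signal of the 3 was 293.5 to 326.6 in spy-3 and 436.5 to 478.6 in wild type, and nearly all of it came from RCA. Of 16 listed root hair genes 4 were measured, none at 0, and 3 were lower, among them the expansin gene EXPA7 (-0.44 on the log2 scale, limma, adjusted p = 0.00274). The other, SCN1, was not called, with means of 1294.8 in spy-3 and 1265.9 in wild type (0.03 on the log2 scale, limma, adjusted p = 0.73). Over all probe sets, 3.13% were called lower. The summed signal of the 4 root hair genes was 4940.0 to 5193.4 in spy-3 and 5945.1 to 6076.6 in wild type. The part of these markers in the lower signals of the low-oxygen genes was not tested. In whole roots fewer cells of a type and less RNA per cell cannot be told apart. None of the 9 listed markers of dividing cells had a probe set of its own among the named ones.

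The spread among arrays of the same genotype showed no array on which the 9 genes were low or high together. Whether the choice of the genes favored those with little spread is not known. Relative to the mean of its genotype, each spy-3 array had 3 to 4 of the 9 genes above and each wild-type array 4 to 5. The mean deviation of the 9 genes on an array lay between -0.04 and 0.04 on the log2 scale. Over the 36 pairs of genes, deviations from the genotype means correlated across the 6 arrays with a median Pearson coefficient of -0.09 (range -0.89 to 0.90), with 15 pairs positive and 21 negative. These arrays leave few degrees of freedom, and the coefficients are given as a description.

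Within a genotype the 9 genes differed in scatter. The pooled SD of the log2 signal was 0.09 for AT1G33055, 0.10 for AT3G10020 and 0.12 for HRA1. It was 0.34 for AT4G10270, 0.35 for PDC2 and 0.38 for AT1G19530. The difference between the genotypes exceeded this spread many times over for AT1G33055, AT3G10020 and HRA1, and was close to it for PDC2.

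**Figure D3:**
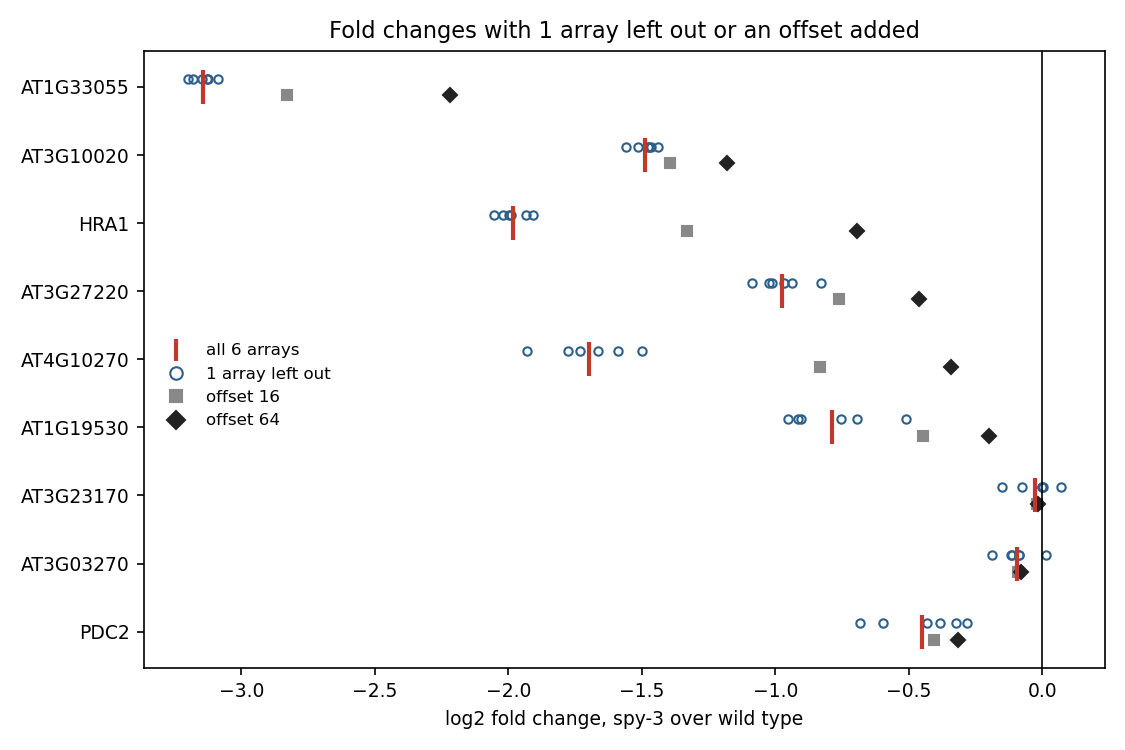
Log2 fold change of spy-3 over wild type for each of the 9 genes with all 6 arrays (red bar), with 1 array left out (open blue circles) and with 16 (grey square) or 64 (black diamond) added to the signals before log2. AT1G33055 stayed between -3.20 and -3.09 when 1 array was left out, HRA1 moved to -0.69 with the offset of 64, and AT3G23170 and AT3G03270 lie at both sides of 0.

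The wider low-oxygen response was read from 3 lists of 65 other genes, of which 16 had a probe set of their own. These lists were written with it known which low-oxygen genes were among the 9, so they hold what that choice left over. Earlier results of these data were known too, so the lists are no independent check of the 9. None of the 18 listed genes of oxygen sensing, the ERF factors, cysteine oxidases and N-degron components, has a probe set named for it alone in the annotation used, which leaves 8730 probe sets without a gene, and they are not analysed here. Of the 16 genes, 3 were called lower and 1 higher in spy-3, and 12 did not pass. This compares with 3.13% lower and 2.64% higher among all probe sets. The median log2 fold change of the 16 was -0.34, with 13 values below 0 and 3 above, where 46.6% of all probe sets were below 0. In 7 genes all spy-3 arrays were below all wild-type arrays, as for 11.5% of all probe sets. In 2 genes they were above, for which no share of all probe sets was counted.

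Among enzymes of fermentation and carbon supply, 2 of 20 listed genes were measured. PPDK, a pyruvate orthophosphate dikinase, had signals of 57.1, 54.5 and 60.5 in spy-3 and 68.8, 73.3 and 78.6 in wild type. The arrays did not overlap, but the log2 fold change of -0.36 (standard error 0.11) did not pass (limma, adjusted p = 0.149). For AT4G17260 the log2 difference was -0.04 (limma, adjusted p = 0.791). Neither limma nor the analysis of variance called either of the 2 genes, and with an unadjusted threshold of 0.05 each tool gave 1 of them as lower. With PDC2, the measured part of fermentation and carbon supply thus held 3 genes, none of them called.

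Of 27 other genes listed as induced by low oxygen, 14 were measured. AT4G39675 had signals of 673.0, 535.1 and 578.3 in spy-3 and 1056.5, 933.1 and 937.0 in wild type. It was 1.64-fold lower in spy-3 with no overlap, or -0.72 in log2 units (limma, adjusted p = 0.0095). This call did not hold without spy-3 replicate 3 or wild type replicate 1 or 2 (limma, adjusted p = 0.0571, 0.0507 and 0.0512 in that order). Nor did it hold by the analysis of variance (adjusted p = 0.0748).

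AT4G27450 had signals of 253.1, 264.6 and 237.1 in spy-3 and 363.6, 353.7 and 359.6 in wild type, or 1.43-fold lower (-0.51 in log2 units, limma, adjusted p = 0.00399). It was called with each array left out. AT1G74940 was 1.26-fold lower (-0.33 in log2 units, limma, adjusted p = 0.0221), with signals of 221.6, 227.2 and 237.1 in spy-3 and 278.6, 304.5 and 280.1 in wild type. It did not pass once any array was left out (limma, adjusted p between 0.0571 and 0.0805). Nor did it pass with the replicate number as a block, without the variance trend or by the analysis of variance.

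CML38, a calmodulin-like protein gene that low oxygen also induces, differed in the opposite direction. Its signals were 140.6, 112.5 and 125.1 in spy-3 and 85.3, 81.0 and 71.1 in wild type. All spy-3 arrays were above all wild-type arrays, and the signal was 1.59-fold higher, or 0.67 in log2 units (standard error 0.12, limma, adjusted p = 0.0275). CML38 was the 1 gene of the 16 called higher, and this call did not hold when any array was left out (limma, adjusted p between 0.0531 and 0.102), with the replicate number as a block, without the variance trend or by the analysis of variance.

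Among the 12 genes that did not pass, AT4G33560 had the largest fold change, but its signals were very low at 5.4, 2.5 and 0.7 in spy-3 and 14.0, 14.2 and 19.9 in wild type (limma, adjusted p = 0.0726). It was called with 16 or 64 added to each signal (limma, adjusted p = 0.0157 and 0.0165) and without spy-3 replicate 1 (limma, adjusted p = 0.0457). The rest had log2 fold changes between -1.20 and 1.29, both ends being dim genes. Of the 16 genes 8 lay below the median signal, AT4G33560 among them.

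**Figure D4:**
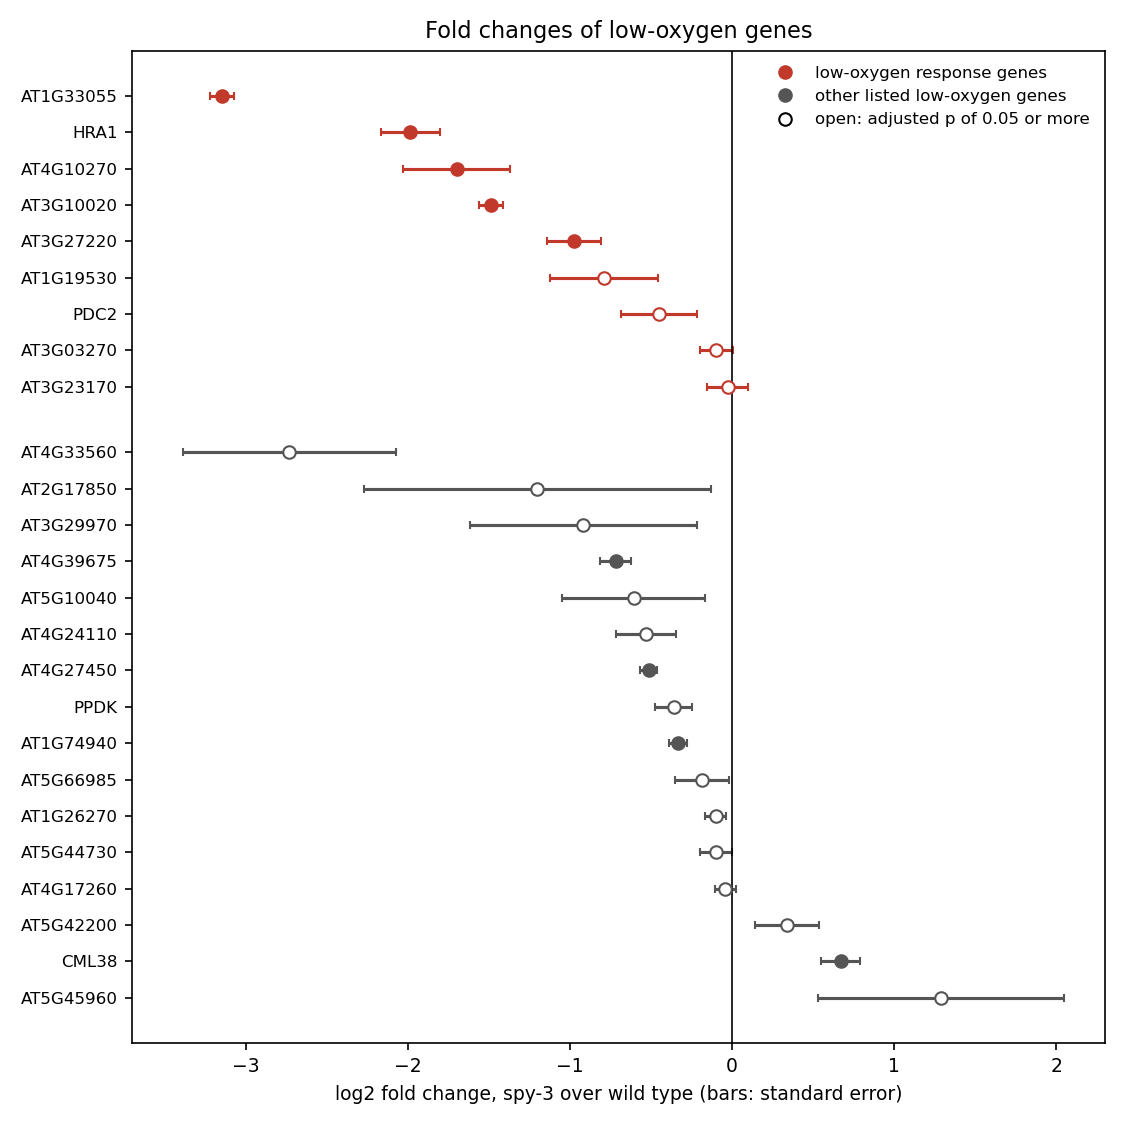
Log2 fold change of spy-3 over wild type with its standard error (bars) for the 9 low-oxygen response genes (red, above) and 16 other listed low-oxygen genes (grey, below). Filled points have a limma adjusted p under 0.05 over all probe sets and open points do not. In the red group 5 points are filled, all left of 0, and in the grey group 3 filled points lie left of 0 and CML38 lies right of 0.

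The genes next to the 9 on the chromosomes were read as well, 2 genes on each side in RefSeq order, a comparison chosen after the values of the 9 were known. Of 15 such neighbors with a probe set of their own, 1 was called lower, 1 higher and 13 neither. Among all probe sets 3.13% were called lower and 2.64% higher. In 7 of the 15 all spy-3 arrays were below all wild-type arrays, against 11.5% of all probe sets. In 1 they were above, for which no share of all probe sets was counted. Both called neighbors are those of PDC2, AT5G54970 next to it and AT5G54940 with AT5G54950, which was not called, in between. AT5G54940 differed by -0.43 in log2 units (limma, adjusted p = 0.00266) and AT5G54970 by 0.25 (limma, adjusted p = 0.0321). The 3 measured neighbors of AT1G33055 were not called, although all had lower means in spy-3. AT1G33050 differed by -0.28 (limma, adjusted p = 0.261) and AT1G33060 by -0.28 (limma, adjusted p = 0.425). AT1G33070 differed by -1.31 (limma, adjusted p = 0.214), at signals of 0.7 to 1.0 in spy-3 and 1.6 to 4.5 in wild type.

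Averaged after each gene was set to the same mean and variance, the 9 genes gave a profile over the 6 arrays that mainly separated the genotypes. Several of the 9 were chosen by this contrast, so the shape of the profile follows in part from that choice. The genes most like this profile were IVD, an isovaleryl-CoA dehydrogenase of leucine breakdown, with a Pearson coefficient of 0.999 over the 6 arrays, then AT4G05070 (0.996), AT1G25275 (0.996), AT3G45530 (0.995) and GH9C1, a glycosyl hydrolase (0.993). All of them had lower signals in spy-3, IVD at 456.9 ± 20.4 in spy-3 and 678.1 ± 36.1 in wild type (SD, n = 3 each). Of 5971 genes compared, 375 had a coefficient above 0.9, and any gene that differs between the genotypes with little scatter takes a high value.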

How the data were processed

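Affymetrix ATH1 arrays of root RNA from 3 spy-3 and 3 wild-type samples were compared. The authors deposited 1 linear intensity per probe set and array, which the submitters' processing notes credit to MAS5. The software version and scaling target were not stated. Any intensity below 1 was raised to 1 before the log2 step, and no other normalization was applied. The spread of each of the 22746 probe sets was moderated in limma 3.58.1 (R 4.3.3, eBayes with trend), with Benjamini-Hochberg adjustment over all of them and calls at 0.05. The script was tested on simulated data. The number of arrays limits the precision.

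Names came from the platform annotation and RefSeq locus tags (TAIR10.1, for names and gene order only). Of 13513 probe sets annotated to 1 gene, 13484 matched a locus. A further 503 listed several genes and 8730 listed none, and these were tested but left unnamed.

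The members and lists were chosen with earlier results of these data known. Genes named are the 9 members, the listed low-oxygen genes that were called (or the 2 of lowest adjusted p where a list had no call), the 5 genes most like the mean member profile among brighter probe sets, and SPY. Marker genes, neighbors and AT4G33560 were named after their values were seen. Alternatives were quantile normalization, median centring, offsets of 16 and 64, omission of the dimmest 40% of probe sets, limma without trend or with robust estimation, a one-way analysis of variance, replicate number as a block, the mean of a gene's probe sets, and omission of each array. Tables were handled with Python 3.11.15 and pandas 2.3.3.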

Additional observations from a re-analysis of the deposited data

How the results depend on the processing

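The count of 5 lower genes among the 9 was 3 after omission of the dimmest 40%, which removed HRA1, AT4G10270 and AT1G19530, 3 with the replicate number as a block and 3 by the analysis of variance. It was 3 to 4 with 1 array left out and 5 under the other alternatives. AT1G33055 and AT3G10020 passed in all 15 other fits and HRA1 in all 14 that kept it. Several of the 9 were chosen by this same contrast, so these passes describe the fits and test nothing. The median log2 fold change of the 9 was -0.76 with an offset of 16, -0.34 with an offset of 64 and -0.71 without the dimmest 40%, and -1.09 to -0.83 with 1 array left out. The count of 3 lower genes among the other 16 was 1 by the analysis of variance, 1 to 3 with 1 array left out, and 4 with either offset, where AT4G33560 was called too. The 1 higher gene, CML38, gave a count of 0 with the replicate block, 0 without the variance trend, 0 by the analysis of variance and 0 to 0 with 1 array left out. Offsets shrink the fold of dim genes by construction, and the cause of the other changes was not tested. Over all probe sets, 712 were lower and 600 higher, against 371 and 287 by the analysis of variance, and 374 and 268 by limma without the trend. Replicates with the same number deviated together with coefficients of 0.176, -0.147 and 0.182 over the 11373 brighter probe sets, so the numbers were not taken to pair the samples, and with the replicate block 391 of all probe sets were lower and 265 higher, with 2 of the other 16 genes lower.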
